A study of Mus musculus with 4 samples.

Results

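The genes described here are the enzymes of glycolysis, of glycogen breakdown and synthesis, and of the pyruvate dehydrogenase complex in mouse heart muscle. The list names 34 genes, and its members were taken as the probe sets whose platform gene symbol is on it, with 1 probe set per gene, the one with the highest mean log2 intensity over the arrays. Of the 34, 30 had a probe set of their own, against 12393 genes in the whole series. Gpi1, Pfkfb1, Eno1 and Gapdh had none; Gapdh was read from its control probe sets as a separate check. The list was drawn up by pathway and no measured value entered the choice, but earlier results of these arrays were known when it was made.

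Each of the 4 arrays carried biotin-labelled RNA pooled from 5 to 6 mice, per the series design. The labels name the left ventricle for both IL-18 null pools and heart muscle for wild-type sham, and no tissue for wild-type banded. The groups were IL-18 null banded (6 mice, 1 week of transaortic constriction, a surgical narrowing of the aorta that overloads the ventricle with pressure), IL-18 null sham (5 mice), wild-type banded and wild-type sham. The IL-18 null mice lack the cytokine gene Il18 and, per the labels of the banded pool, were on a C57BL/6 background; the sources used here give no strain, age or banding time for the wild-type mice, nor a strain for the IL-18 null sham pool. The series names the role of IL-18 in gene expression during pressure-overload hypertrophy as its question. Since each group is a single pooled array, there is no replicate check, error or test for any difference, and all values describe these arrays.

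Glycolysis splits glucose into pyruvate in the cytosol, with phosphofructokinase as its main control point and lactate dehydrogenase interconverting pyruvate and lactate. Glycogen, the stored form of glucose, is broken down by glycogen phosphorylase and built by glycogen synthase, and the pyruvate dehydrogenase complex carries pyruvate into the mitochondrial citric acid cycle. The adult heart burns mainly fatty acids, and a greater use of glucose is a known feature of hypertrophied hearts. Many steps have isozymes encoded by separate genes, some of them typical of muscle.

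Intensities are the deposited linear GCRMA units. A probe set counted as measured when it reached a floor of 64 units on at least 1 array of a comparison, values below the floor were set to it before differences were taken, and a difference that rests on such a value is written as "at least". Differences are on the log2 scale, banded minus sham or IL-18 null minus wild type, and genes were counted at a difference of at least 1, which is 2-fold. Of the 30 members, 26 were measured: 24 reached the floor on all 4 arrays and 2, Pfkl and Pygm, on 3 arrays. Pfkfb2, Aldoc, Pygl and Phkg1 stayed below it on all 4. The deleted gene Il18 had 8.4 units in IL-18 null banded, 8.2 in IL-18 null sham, 7.4 in wild-type banded and 9.1 in wild-type sham. These values are all below the floor, so Il18 gave no check of the genotype labels.

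The wild-type sham array stood apart. Over 5158 measured genes it correlated with the other arrays at Pearson's r from 0.774 to 0.871, while the other arrays correlated with each other at 0.927 to 0.952 (across genes, which are not independent replicates). Of the 10 skeletal muscle markers, Myh1, Myh2, Myh4, Tnnt3, Tnni2, Tnnc2, Mylpf, Actn3, Atp2a1 and Pvalb, 0 reached the floor on any array. The 9 cardiac muscle markers were measured on every array, with summed intensities of 195656 in IL-18 null banded, 198797 in IL-18 null sham, 214494 in wild-type banded and 167952 in wild-type sham. Of the 9, Mybpc3, a protein of the thick filament, passed 2-fold with banding in wild type (4.13), with 11767 units in IL-18 null banded, 10371 in IL-18 null sham, 16556 in wild-type banded and 948.5 in wild-type sham. Of the 6 endothelial markers, 0 of 5 measured passed 2-fold with banding in IL-18 null. In wild type 2 of 6 were higher (21.7% of all genes), Emcn by 3.24 and Pecam1 by at least 2.67. The others differed in wild type by at least 0.92 (Cldn5), 0.43 (Kdr), -0.06 (Cdh5) and -0.80 (Tek). The median of the endothelial markers was -0.26 in IL-18 null, 0.68 in wild type and -0.77 for the difference of the banding responses. Their part in the members' differences was not tested. In bulk RNA, fewer cells of a type and less RNA per cell cannot be told apart.

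Gapdh, the glycolytic enzyme that oxidises glyceraldehyde 3-phosphate, was read by control probe sets at 3 positions along its transcript. At the 3′ end it had 12239 units in IL-18 null banded, 10744 in IL-18 null sham, 15322 in wild-type banded and 2045 in wild-type sham. In the middle it had 3885, 1619.6, 17063 and 83.6 units on the same arrays in the same order. At the 5′ end the values were 597, 307, 13237 and 65.8 units. The wild-type banded array was thus nearly level along the transcript, with a ratio of 3′ end over middle of 0.898, while the other arrays had ratios of 3.15 (IL-18 null banded), 6.63 (IL-18 null sham) and 24.5 (wild-type sham). The size of the Gapdh difference between the wild-type arrays, banded minus sham, accordingly ran from 2.91 at the 3′ end to 7.67 in the middle and 7.65 at the 5′ end. Between the IL-18 null arrays it ran from 0.19 at the 3′ end to 1.26 in the middle and 0.96 at the 5′ end. In banded hearts Gapdh in IL-18 null minus wild type was -0.32 at the 3′ end, -2.13 in the middle and -4.47 at the 5′ end. A bacterial transcript, dap, read by controls of the same kind, had 804 units at its 3′ end in IL-18 null banded, 538 in IL-18 null sham, 913 in wild-type banded and 57.0 in wild-type sham. In its middle it had 236, 243, 1046 and 7.5 units on the same arrays, and at its 5′ end 11.7, 13.6, 471 and 11 units. Away from the 3′ end wild-type banded thus stood far above both IL-18 null arrays, and the banded genotype difference of dap, IL-18 null minus wild type, was -0.18 at the 3′ end, -2.15 in the middle and at most -2.88 at the 5′ end. The last 2 exceed in size the differences of all 3 members past 2-fold in that comparison (-1.12 to -1.23). These position-dependent values stand beside every comparison that follows, and their part in the members' differences was not tested.

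**Figure D1:**
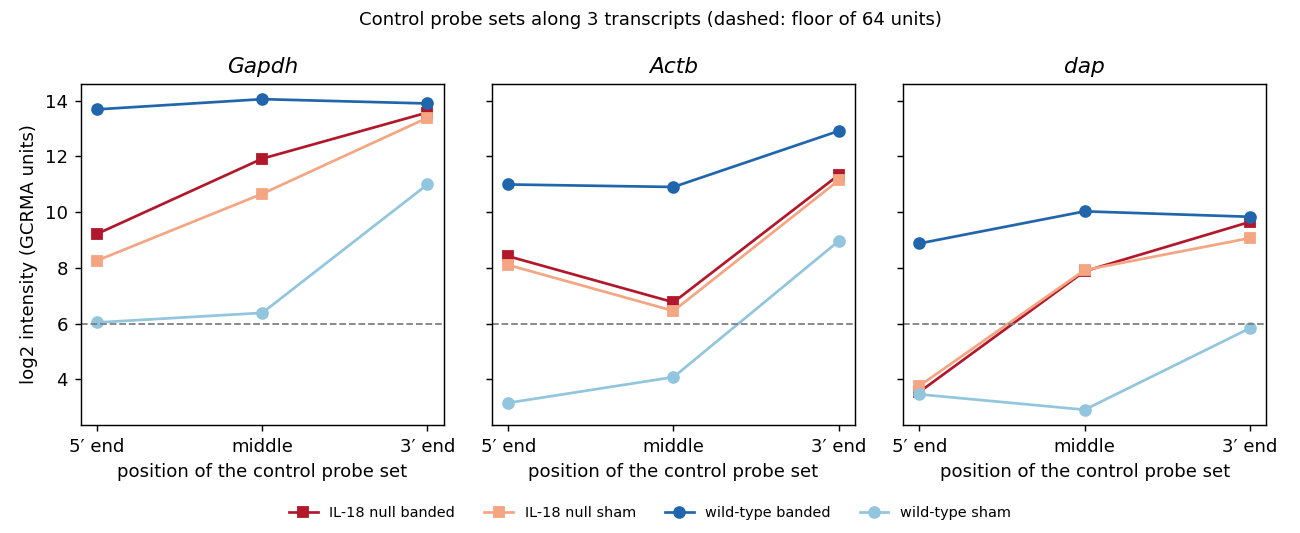
Log2 intensity (GCRMA units, y axis) of control probe sets at the 5′ end, middle and 3′ end (x axis) of Gapdh, Actb and the bacterial transcript dap, with 1 line per array and the dashed line at the floor of 64 units. The wild-type banded line is the highest at every position of all 3 transcripts, the wild-type sham line the lowest, and for Gapdh the arrays lie furthest apart away from the 3′ end.

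Most members that differed did so in the comparisons that use the wild-type sham array. With banding in IL-18 null, 1 of 26 measured members (3.85%) was at least 2-fold higher and 0 lower, where 6.98% of all 4827 genes measured were higher and 2.53% lower (9.51% either way). In wild type, 11 of 26 (42.3%) were higher by that much and 0 lower, where 21.7% of all 5040 genes were higher and 12.8% lower (34.6% either way). The members' median difference was -0.05 in IL-18 null and 0.82 in wild type, against medians over all genes of 0.08 and -0.08. In banded hearts, IL-18 null minus wild type, 3 members were at least 2-fold lower and 0 higher. Over all genes 7.74% were lower and 5.7% higher (13.4% either way), and the median of the members was -0.20. In sham hearts 9 members passed 2-fold upward and 0 downward (median of the members 0.55), where 16.3% of all genes were higher and 6.29% lower (22.6% either way). Among the 3597 genes whose mean intensity lay in the range of the measured members, 23.0% were higher and 13.8% lower with banding in wild type. The comparisons share arrays: both wild-type banding and the sham genotype comparison subtract the wild-type sham array, so their results are not independent of each other.

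Of the 26 measured members, 19 (73.1%) had their lowest value on the wild-type sham array, where 35.9% of all measured genes did. The highest value fell on the wild-type banded array for 15 members (57.7%), against 25.8% of all measured genes. Leaving out wild-type sham, 4 of 26 members (15.4%) spanned 2-fold or more over the other 3 arrays, against 22.9% of all measured genes. Among genes whose mean intensity lay in the range of the measured members the share was 17%, near that of the members. These spans were taken without the floor. The 4 members were Pfkm, Pfkl, Pygm and Pfkp. The first 3 had their highest value in wild-type banded, and Pfkp in IL-18 null banded.

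**Figure D2:**
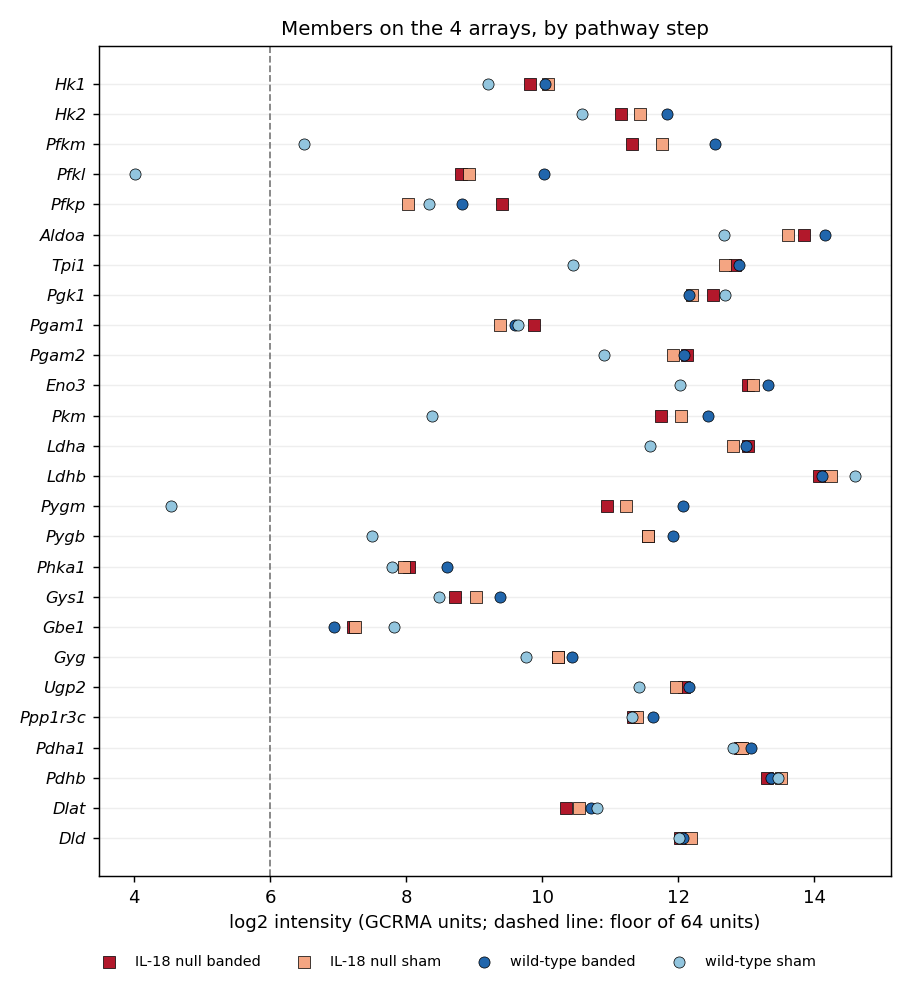
Log2 intensity (GCRMA units, x axis) of the 26 measured members (rows, in pathway order from hexokinases at the top to the pyruvate dehydrogenase complex at the bottom) on the 4 arrays, with squares for IL-18 null, circles for wild type, dark fill for banded and light fill for sham. The wild-type sham circle lies far to the left of the other arrays for Pfkm, Pfkl, Pkm, Pygm and Pygb, and close to them for the 4 pyruvate dehydrogenase genes.

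Upper glycolysis had 5 measured members, of which 1 passed 2-fold upward with banding in IL-18 null (6.98% of all genes) and 3 in wild type (21.7% of all genes). Hexokinase 2, the insulin-regulated muscle form that traps glucose as glucose 6-phosphate, had 2296 units in IL-18 null banded, 2783 in IL-18 null sham, 3640.4 in wild-type banded and 1537 in wild-type sham. The banding difference of Hk2 was -0.28 in IL-18 null and 1.24 in wild type. Hk1, the more widely expressed form, had 908 units in IL-18 null banded, 1082 in IL-18 null sham, 1053 in wild-type banded and 588 in wild-type sham, and stayed within 2-fold in each comparison of 2 arrays.

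Of the 3 phosphofructokinase genes, Pfkm and Pfkl ordered the arrays alike and Pfkp did not. Pfkm, the muscle isozyme, had 2552 units in IL-18 null banded, 3474 in IL-18 null sham, 5982 in wild-type banded and 90.2 in wild-type sham. Its banding difference was -0.45 in IL-18 null and 6.05, or 66.3-fold, in wild type. Pfkl, the liver isozyme, had 448 units in IL-18 null banded, 487 in IL-18 null sham, 1049 in wild-type banded and 16.1 in wild-type sham, the last below the floor. The order of the arrays was thus the same for Pfkm and Pfkl. Other members, among them Hk2, Pkm, Eno3, Pygm, Pygb and Gys1, shared this order. The Pfkl banding difference was -0.12 in IL-18 null and at least 4.03 in wild type. In banded hearts both were below wild type in IL-18 null, with differences of -1.23 for Pfkm and -1.23 for Pfkl. A second, dimmer Pfkl probe set reached the floor on wild-type banded alone, at 101 units. It gave at least 0.66 with banding in wild type and at most -0.66 for genotype in banded hearts.

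Pfkp, the platelet isozyme, went another way. It had 683 units in IL-18 null banded, 261 in IL-18 null sham, 452 in wild-type banded and 324 in wild-type sham. The IL-18 null banded array was the highest, and Pfkp was the single member at least 2-fold higher with banding in IL-18 null (1.39, or 2.62-fold; 0.48 in wild type). This comparison does not use the wild-type sham array. Summed macrophage markers were 8358 units in IL-18 null banded and 3510.4 in IL-18 null sham, 5998 in wild-type banded and 3173 in wild-type sham. Summed fibroblast markers were 28736, 12909, 22901 and 9723 units on the same arrays. With banding in IL-18 null, 5 of 8 macrophage markers and 4 of 7 fibroblast markers measured were at least 2-fold higher, against 6.98% of all genes. The same numbers were higher in wild type, against 21.7% of all genes, but not all were the same genes. Csf1r and Mpeg1 differed by 1.06 and 1.91 in IL-18 null and by -0.67 and -0.51 in wild type. C1qa and Lyz2 passed 2-fold in wild type only (at least 2.52 and 1.62), and the fibroblast marker Pdgfra was lower in both (-0.84 and -0.61). The part of these markers in the Pfkp value was not tested. Pfkfb2, which makes the activator fructose 2,6-bisphosphate, was below the floor on all 4 arrays, at 14.2 to 24.0 units.

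From aldolase to pyruvate kinase 7 members were measured, of which 0 passed 2-fold either way with banding in IL-18 null (9.51% of all genes) and 5 were higher in wild type (21.7% of all genes). Pkm, pyruvate kinase of muscle and other tissues, had 3442 units in IL-18 null banded, 4214 in IL-18 null sham, 5532 in wild-type banded and 334 in wild-type sham. Its banding difference was -0.29 in IL-18 null and 4.05 in wild type. Tpi1, triosephosphate isomerase, had 7291 units in IL-18 null banded, 6602 in IL-18 null sham, 7590.3 in wild-type banded and 1400.1 in wild-type sham. Again the wild-type sham value alone stood low. The Tpi1 banding difference was 0.14 in IL-18 null and 2.44 in wild type, and the genotype difference was -0.06 in banded and 2.24 in sham hearts.

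Aldoa, the muscle aldolase, had 14854 units in IL-18 null banded, 12501 in IL-18 null sham, 18259 in wild-type banded and 6530.1 in wild-type sham, a banding difference of 0.25 in IL-18 null and 1.48 in wild type. Eno3, the muscle enolase, had 8349 units in IL-18 null banded, 8824 in IL-18 null sham, 10291 in wild-type banded and 4172 in wild-type sham. Pgam2, the muscle phosphoglycerate mutase, had 4469.7, 3869 and 4335 units on the same first 3 arrays and 1934 in wild-type sham. Eno3 and Pgam2 were higher with banding in wild type by 1.30 and 1.16, and differed by -0.08 and 0.21 in IL-18 null. The defining markers of skeletal muscle, whose fibres also use these isozymes, were below the floor on all arrays.

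The remaining 2 measured genes of the lower pathway, Pgam1 and Pgk1, stayed within 2-fold in each comparison of 2 arrays. Pgam1, the phosphoglycerate mutase of most tissues, had 944 units in IL-18 null banded, 666 in IL-18 null sham, 773 in wild-type banded and 799 in wild-type sham. Pgk1, phosphoglycerate kinase, had 5842 units in IL-18 null banded, 4706 in IL-18 null sham, 4600.0 in wild-type banded and 6602 in wild-type sham. The banding differences of Pgk1 were 0.31 in IL-18 null and -0.52 in wild type. Wild-type sham was the highest array on this Pgk1 probe set and the lowest on 1 of its other probe sets, which gave 0.26 in wild type. The Pgk1, Aldoa, Tpi1 and Ugp2 probe sets used carry the suffix that marks probes able to hybridise with other transcripts, so those values may include signal of close relatives.

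Both lactate dehydrogenase genes were bright on all arrays, and 1 of the 2, Ldha, passed 2-fold with banding in wild type. Ldha, which encodes the form typical of glycolytic tissue, had 8331 units in IL-18 null banded, 7133 in IL-18 null sham, 8176 in wild-type banded and 3081 in wild-type sham. Its banding difference was 0.22 in IL-18 null and 1.41 in wild type. Ldhb, which encodes the form typical of heart, had 17239.7 units in IL-18 null banded, 19457 in IL-18 null sham, 17738 in wild-type banded and 24734 in wild-type sham. The Ldhb banding difference was -0.17 in IL-18 null and -0.48 in wild type. The 4 Ldhb probe sets did not share a direction in wild type: they ran from -0.48 to 0.33, and wild-type sham was their highest array in 2 and their lowest in 1. In IL-18 null they ran from -0.34 to -0.12.

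Glycogen breakdown had 3 measured genes, of which 0 passed 2-fold with banding in IL-18 null (9.51% of all genes) and 2 were higher in wild type (21.7% of all genes). Pygm, the muscle phosphorylase that releases glucose 1-phosphate from glycogen, had 1986 units in IL-18 null banded, 2416 in IL-18 null sham, 4316 in wild-type banded and 23.2 in wild-type sham. The wild-type sham value lay below the floor. The Pygm banding difference was -0.28 in IL-18 null and at least 6.08 in wild type, which is at least 67.4-fold. In banded hearts Pygm was -1.12 in IL-18 null minus wild type, and in sham hearts at least 5.24.

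Pygb, the brain phosphorylase, which the heart also expresses, had 3007 units in IL-18 null banded, 3017 in IL-18 null sham, 3899 in wild-type banded and 181 in wild-type sham. The IL-18 null arrays differed by -0.0046 and the wild-type arrays by 4.43. Phka1, the muscle regulatory subunit of the phosphorylase kinase that switches phosphorylase on, had 263 units in IL-18 null banded, 249.8 in IL-18 null sham, 389 in wild-type banded and 223 in wild-type sham, within 2-fold throughout. Pygl, the liver phosphorylase (24.8 to 44.8 units), and Phkg1, a catalytic subunit of phosphorylase kinase (16.4 to 34.5 units), were below the floor on all arrays.

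On the probe sets used, all 5 glycogen synthesis members stayed within 2-fold in all 4 comparisons of 2 arrays. Over all genes, the share past 2-fold either way was 9.51% with banding in IL-18 null and 34.6% in wild type. For genotype it was 13.4% in banded and 22.6% in sham hearts. A dimmer probe set of Ugp2 (1.78) and a dimmer one of Ppp1r3c (at least 2.30) passed 2-fold with banding in wild type. The other measured Ugp2 probe sets stayed within it there. Gys1, the muscle glycogen synthase, had 423 units in IL-18 null banded, 522 in IL-18 null sham, 666 in wild-type banded and 358 in wild-type sham. Gyg, glycogenin, the protein on which a glycogen particle starts, had 1209 units in IL-18 null banded, 1203 in IL-18 null sham, 1383 in wild-type banded and 872 in wild-type sham. Ugp2, which makes the sugar donor UDP-glucose, differed by 0.11 with banding in IL-18 null and 0.74 in wild type. Ppp1r3c, a subunit that brings a phosphatase to glycogen, differed by -0.07 and 0.31. Gbe1, the branching enzyme, ran opposite to Gys1, Gyg and Ugp2. It had 149 units in IL-18 null banded, 152 in IL-18 null sham, 123 in wild-type banded and 225 in wild-type sham, a banding difference of -0.03 in IL-18 null and -0.88 in wild type.

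On the probe sets used, all 4 pyruvate dehydrogenase genes stayed within 2-fold in all 4 comparisons of 2 arrays. Over all genes, 9.51% passed 2-fold either way with banding in IL-18 null and 34.6% in wild type. For genotype the share was 13.4% in banded and 22.6% in sham hearts. The dimmer probe sets of Pdha1 and Pdhb passed 2-fold with banding in wild type, in opposite directions (3.97 and -1.13). Pdha1, the E1 alpha subunit whose phosphorylation turns the complex off, had 7678 units in IL-18 null banded, 7823 in IL-18 null sham, 8599.7 in wild-type banded and 7131 in wild-type sham. Pdhb, the E1 beta subunit, had 10106 units in IL-18 null banded, 11720.2 in IL-18 null sham, 10584 in wild-type banded and 11379 in wild-type sham. For Pdhb the wild-type sham value lay inside the range of the others, and for Pdha1 just below it. Dlat, the E2 core subunit, and Dld, the E3 subunit shared with other dehydrogenases, had banding differences of -0.20 and -0.17 in IL-18 null and of -0.08 and 0.06 in wild type.

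**Figure D3:**
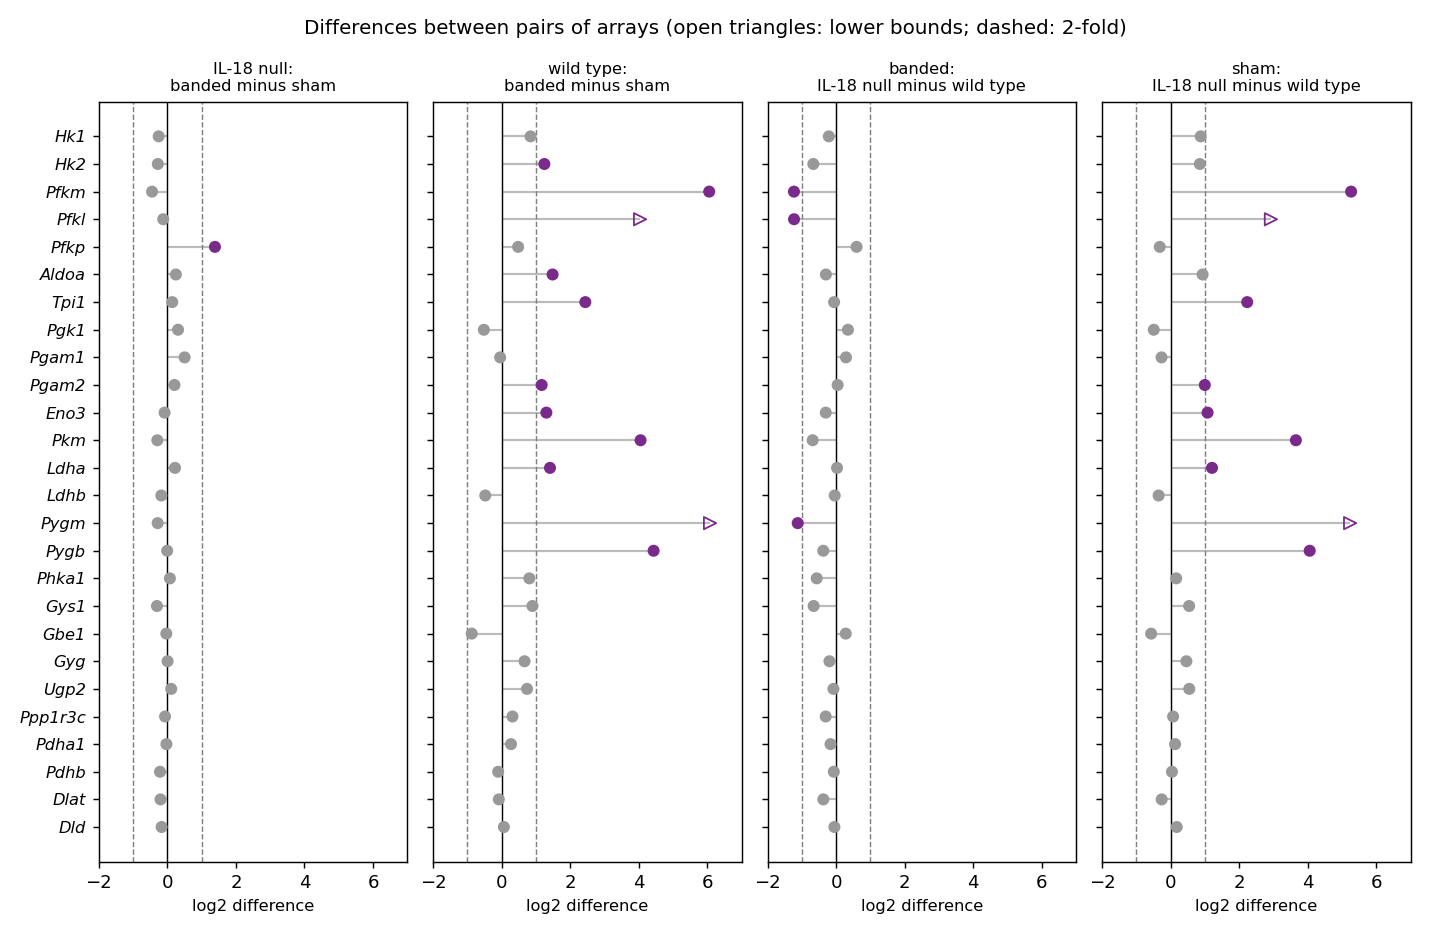
Log2 differences (x axis) of the 26 measured members (rows, in pathway order) in 4 comparisons of 2 arrays, with purple marks for differences of at least 2-fold, open triangles for lower bounds and dashed lines at 2-fold. The panels that use the wild-type sham array hold 11 and 9 members past the upper line, the panel of banding in IL-18 null holds 1 (Pfkp), and the banded genotype panel has 3 past the lower line (Pfkm, Pfkl and Pygm).

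Taking the banding response of IL-18 null minus that of wild type, 12 of 26 members were at least 2-fold lower and 0 higher, where 21% of all 5158 genes were lower and 20.4% higher, or 41.4% either way (median of the members -0.84, of all genes 0.16). The lowest measured on all 4 arrays was Pfkm at -6.50, then Pygb at -4.43 and Pkm at -4.34. Pygm and Pfkl, with the wild-type sham value at the floor, were at most -6.36 and -4.15. After quantile normalization 9 members were lower and 2 higher, where 17.4% of all 5252 genes measured in that setting were lower and 28% higher. This value takes in all 4 arrays, the wild-type sham array included.

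Several members were read by more than 1 probe set, which shows how far a difference held within a gene. Among the 11 members with more than 1 measured probe set, the probe sets of 7 lay at least 2-fold apart in their wild-type banding difference, with a median distance of 1.83. Over all genes with several measured probe sets the share was 59% and the median distance 1.25. For banding in IL-18 null, 1 of 8 members with more than 1 measured there was that far apart (median distance 0.33; 21.2% of all such genes). The wild-type banding difference of Aldoa ran from 1.48 to 4.57 over its 4 probe sets, while in IL-18 null it ran from 0.25 to 0.33. That of Tpi1 ran from 2.24 to 4.06 over 3 probe sets in wild type and from 0.14 to 0.44 in IL-18 null.

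The pyruvate dehydrogenase result also depended on the probe set. The dimmer probe set of Pdha1 had 605 units in IL-18 null banded, 1922 in IL-18 null sham, 3822 in wild-type banded and 244 in wild-type sham. Its banding difference was -1.67 in IL-18 null and 3.97 in wild type, against -0.03 and 0.27 for the brighter one. The dimmer probe set of Pdhb went the other way, with 192 units in IL-18 null banded, 173 in IL-18 null sham, 139 in wild-type banded and 304 in wild-type sham, for banding differences of 0.15 in IL-18 null and -1.13 in wild type. The dimmer probe set of Ppp1r3c passed the floor on wild-type banded alone (315 units), and gave at least 2.30 in wild type where the brighter one gave 0.31. The 3 probe sets of Pgk1 gave -0.52 to 0.26 in wild type, and the 5 of Ugp2 gave -0.30 to 1.78. A probe set annotated to Gapdh and 4 other genes had 8916 units in IL-18 null banded, 8866 in IL-18 null sham, 12366 in wild-type banded and 963 in wild-type sham, the same order of arrays as in the 3′ Gapdh control. A second, dimmer probe set annotated to Gapdh and 1 other gene did not follow it, with 352.4, 352.1, 331 and 377 units on the same arrays and a wild-type banding difference of -0.19.

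**Figure D4:**
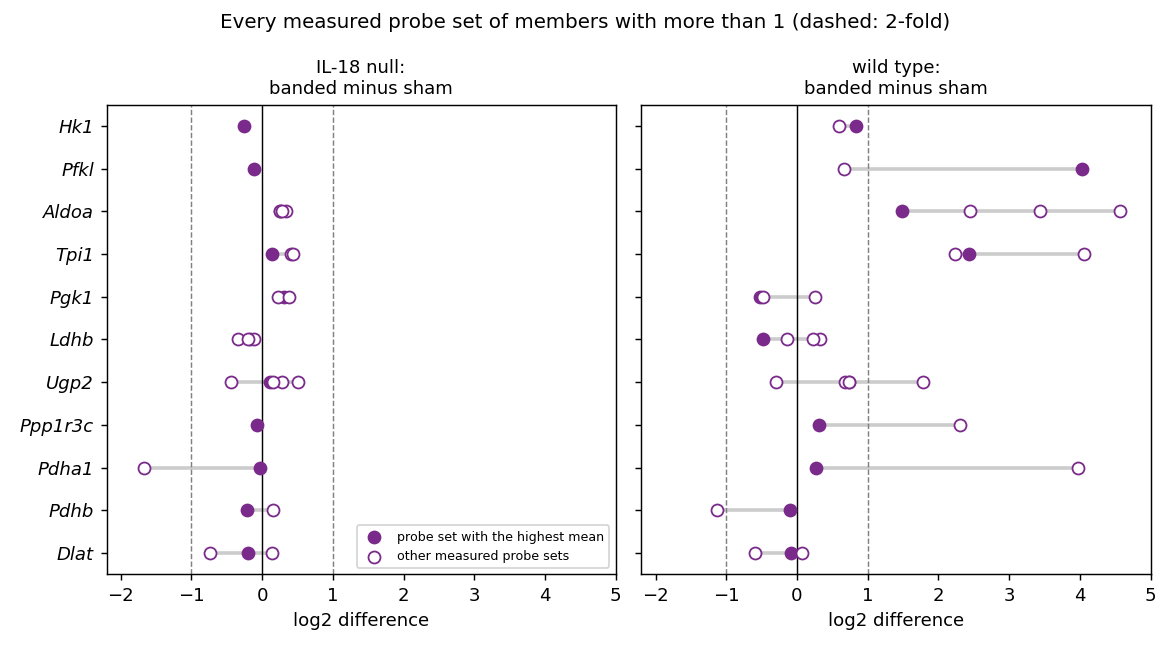
Banding difference (log2, x axis) of every measured probe set of the 11 members with more than 1, in IL-18 null and in wild type, with filled circles for the probe set used and open circles for the others. In wild type the circles of Aldoa, Tpi1, Pfkl, Ppp1r3c, Ugp2, Pdha1 and Pdhb spread over 2-fold or more, and in IL-18 null those of Pdha1 do.

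Promoters are shown for 3 members with different patterns on these arrays: Pygm, past 2-fold with banding in wild type by a wide margin, Ldha, past it by a smaller one, and Pgk1, within 2-fold on all of its 3 probe sets. RefSeq promoter windows (GRCm38.p6, 250 bases before to 50 after a gene start) matched all 34 members, with 51 windows. Capitals mark ACGTG on either strand, the core that hypoxia-inducible factors bind; where it lies in CACGTG it matches on both strands and is also an E-box. The windows are chr19:6384158-6384457 on the plus strand for Pygm, chr7:46845554-46845853 on the plus strand for Ldha (the first of its 2 windows) and chrX:106186850-106187149 on the plus strand for Pgk1.
Pygm: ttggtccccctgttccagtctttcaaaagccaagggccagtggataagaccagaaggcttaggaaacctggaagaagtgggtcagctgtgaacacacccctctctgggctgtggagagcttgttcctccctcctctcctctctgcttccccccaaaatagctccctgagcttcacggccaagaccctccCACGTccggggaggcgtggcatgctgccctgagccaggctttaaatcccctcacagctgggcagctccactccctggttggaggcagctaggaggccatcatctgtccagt
Ldha: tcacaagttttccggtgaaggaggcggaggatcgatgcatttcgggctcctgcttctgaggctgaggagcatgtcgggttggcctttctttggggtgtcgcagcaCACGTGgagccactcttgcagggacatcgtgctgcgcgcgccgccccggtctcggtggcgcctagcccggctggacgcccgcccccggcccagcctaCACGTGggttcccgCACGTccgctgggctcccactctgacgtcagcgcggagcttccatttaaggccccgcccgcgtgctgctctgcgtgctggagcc
Pgk1: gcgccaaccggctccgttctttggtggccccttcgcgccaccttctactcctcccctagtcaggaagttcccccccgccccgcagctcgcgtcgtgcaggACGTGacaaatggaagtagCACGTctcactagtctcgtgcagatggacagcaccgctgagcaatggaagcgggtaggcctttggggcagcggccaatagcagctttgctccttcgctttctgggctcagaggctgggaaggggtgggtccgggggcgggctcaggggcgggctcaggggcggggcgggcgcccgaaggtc

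The ACGTG core was in 18 of 34 members and in 41.2% of their 51 windows, against 19.6% of all 32851 windows. The members' windows were richer in G and C, with a median of 60.3% against 52.7%. Among all windows with 53.5% to 64.8% G and C, the middle range of the members, 24% held the core, as did 10 of the 25 member windows in that range. Of the 11 members that passed 2-fold upward in the wild-type banding comparison 7 held the core, and of the 15 within 2-fold 7 did. The other motifs searched, on both strands, were CANNTG (72.5% of the members' windows, 72.3% of all), CACGTG (9.8% and 7.15%), CATTCC (11.8% and 14.7%), GGGCGG (49% and 35.7%; 51.5% of all windows in the same G and C range) and TATAAA (1.96% and 13.6%). In that G and C range CANNTG was in 71.4% of all windows and 17 of the 25 member windows, and CACGTG in 9.4% and 1. There CATTCC was in 13.7% of all windows and 2 of the members', GGGCGG in 51.5% and 13, and TATAAA in 6.18% and 0. CACGTG is a special case of both CANNTG and ACGTG. A match is a run of letters in this window and not a measured site.

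Among the other genes of glucose use, the transporters were the most uneven list. Of 5 measured genes, 0 passed 2-fold with banding in IL-18 null (9.51% of all genes). In wild type 3 were higher and 1 lower, where 21.7% of all genes were higher and 12.8% lower. Slc2a4, the insulin-regulated glucose transporter GLUT4, had 297 units in IL-18 null banded, 574 in IL-18 null sham, 2261 in wild-type banded and 254 in wild-type sham. Slc2a1, the basal transporter GLUT1, had 429 units in IL-18 null banded, 216 in IL-18 null sham, 158 in wild-type banded and 359 in wild-type sham. The banding difference of Slc2a4 was -0.95 in IL-18 null and 3.15 in wild type, and that of Slc2a1 was 0.99 and -1.19. In banded hearts Slc2a4 was -2.93 in IL-18 null minus wild type and Slc2a1 1.44, so the 2 transporters ran opposite ways. Bsg, the chaperone of lactate carriers, and Txnip, an inhibitor of glucose uptake, followed Slc2a4 in wild type, at 7.26 and 3.50.

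Regulators of pyruvate dehydrogenase had 0 of 5 measured genes past 2-fold with banding in IL-18 null (9.51% of all genes) and 2 higher in wild type (21.7% of all genes). Pdk4, the kinase that shuts the complex off in fasting, had 5964 units in IL-18 null banded, 7328 in IL-18 null sham, 5672 in wild-type banded and 7134 in wild-type sham, a banding difference of -0.30 in IL-18 null and -0.33 in wild type. Pdk2, a sister kinase, had 697 units in IL-18 null banded, 1333 in IL-18 null sham, 2834 in wild-type banded and 31.0 in wild-type sham. The Pdk2 banding difference was -0.94 in IL-18 null and at least 5.47 in wild type. Lias, which makes the lipoic acid the complex needs, differed by -0.21 and 1.89, and Pdk1 by 0.19 and 0.14.

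The other glycogen genes had 0 of 8 past 2-fold with banding in IL-18 null (9.51% of all genes) and 3 higher in wild type (21.7% of all genes). These were Ppp1ca, a catalytic subunit of protein phosphatase 1 (at least 4.60), Pgm1, a phosphoglucomutase (2.33), and Phka2, the liver regulatory subunit of phosphorylase kinase (at least 1.03). Gaa, the lysosomal enzyme that digests glycogen, differed by -0.10 in IL-18 null and 1.00 in wild type, just under the 2-fold line. Of 21 other glycolytic isozymes and regulators listed, 4 were measured for banding in IL-18 null and 3 in wild type. In each, 0 passed 2-fold, where 9.51% of all genes did either way in IL-18 null and 34.6% in wild type. Fbp2, the muscle enzyme that opposes phosphofructokinase, had 481 units in IL-18 null banded, 869 in IL-18 null sham, 515 in wild-type banded and 425 in wild-type sham, and in sham hearts its IL-18 null minus wild type difference was 1.03. Pfkfb3, which makes fructose 2,6-bisphosphate, reached the floor on the IL-18 null banded array alone, at 93.5 units, for a banding difference of at least 0.55; Galm and Bpgm stayed within 2-fold in each comparison of 2 arrays.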

How the data were processed

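RNA of 4 heart pools was hybridised with biotin label to 4 arrays, 1 per group, and samples were grouped by title. The files hold linear intensity values as deposited, made with GCRMA by the authors (per the submitters' processing notes). No version and no later scaling is stated in what was used here. Values ran from 1.5 to 43811.1, and precision is limited by having 4 arrays. Of 22690 probe sets, 64 controls, 691 with several genes and 1555 with none were left out, which left 12393 genes named from the platform annotation. Entrez identifiers of all 30 members with a probe set matched RefSeq, and 0 symbols changed. Differences used log2 with a floor of 64 units and counts a 2-fold threshold, with no test; the counting was tested on simulated data. The members and lists were chosen with earlier results of these data known. All members are accounted for; from each other list up to 4 genes were named by their largest difference in any comparison of 2 arrays, with Slc2a1, Slc2a4, Pdk4 and Hif1a always. Alternatives were other floors, 2 scalings, other probe set rules and a 1.5-fold threshold. Python 3.11.15, numpy 2.4.6 and pandas 2.3.3 were used.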

Additional observations from a re-analysis of the deposited data

Results flagged for a closer look

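With banding, the dimmer probe set of Pdha1, which was not used for the gene, differed by -1.67 in IL-18 null and by 3.97 in wild type, at least 2-fold in opposite ways in the 2 genotypes. The difference between the genotypes was not tested, since there is 1 array per group. No other measured probe set of a member met this criterion.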

How the results depend on the processing

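With 1 array per group, no replicate could be left out, and wild-type banding has no value without the wild-type sham array. No paired analysis was possible because each group has 1 array. Counts of members at least 2-fold different are 1 for banding in IL-18 null, 11 for banding in wild type, 3 for genotype in banded hearts, 9 for genotype in sham hearts and 12 for the difference of the banding responses. A lower floor, a higher floor and no floor changed none of these 5 counts. Leaving out probe sets whose suffix marks more than 1 transcript removed 8 of 26 measured members. It gave 7 of 18 for banding in wild type, all higher, and 7 of 18 for the difference of responses, all lower. Over all genes in that setting, 23.7% were higher and 11.6% lower with banding in wild type. For the difference of responses 18% were higher and 23.2% lower. Averaging each gene's probe sets gave 6 for genotype in banded hearts, all lower, where 3.74% of all genes were higher and 10.2% lower. With banding in IL-18 null the 1 gene past 2-fold was then Ppp1r3c, which was lower. That value rested on its dimmer probe set, below the floor at 5.1 units in IL-18 null banded and 25.9 in IL-18 null sham. The brighter probe set gave -0.07. The averaged Pfkp was below the floor. At 1.5-fold the counts were 17 for banding in wild type, 7 for genotype in banded hearts and 19 for the difference of responses. Over all genes, 29% were then higher and 27.3% lower with banding in wild type, 17% and 13.9% for genotype in banded hearts, and 34% and 27.8% for the difference of responses. Quantile normalization moved the wild-type banding median of all genes from -0.08 to -0.42 and that of the members from 0.82 to 0.49; 9 members were then higher and 1 lower, where 16.5% of all genes were higher and 24.7% lower, and Hk2 and Pgam2 missed 2-fold, at 0.93 and 0.87. The Hk1 difference of responses, -1.09, became 0.91 when a probe set shared with Rpl17 and others was added, since that brighter probe set then stood for Hk1.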

Other observations

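Of the pentose phosphate and hexosamine genes, 0 of 10 measured were past 2-fold with banding in IL-18 null (9.51% of all genes). In wild type 2 of 11 (18.2%) were higher, near the 21.7% of all genes. In banded hearts, IL-18 null minus wild type, 2 of 10 passed 2-fold, Uap1 at 1.11 and Pgls at -1.20, where 13.4% of all genes did. Uap1, which makes the hexosamine donor UDP-N-acetylglucosamine, had 695 units in IL-18 null banded, 349.6 in IL-18 null sham, 322 in wild-type banded and 461 in wild-type sham. Pgd, an enzyme of the oxidative pentose pathway, had 609 units in IL-18 null banded, 312 in IL-18 null sham, 503 in wild-type banded and 331 in wild-type sham, with a banding difference of 0.97 in IL-18 null and 0.60 in wild type. Taldo1, transaldolase, differed by 0.43 in IL-18 null and 1.47 in wild type, and Pgls, which opens the lactone ring of that pathway, by at least 0.57 and at least 1.77.

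Of 9 transcription factors of glycolytic and muscle genes measured, 1 passed 2-fold with banding in IL-18 null (9.51% of all genes). In wild type 1 of 9 was higher and 1 lower, where 21.7% of all genes were higher and 12.8% lower. Ppargc1a, a coactivator of mitochondrial genes, was the gene past 2-fold in IL-18 null. It had 303 units in IL-18 null banded, 809 in IL-18 null sham, 625 in wild-type banded and 1413 in wild-type sham, a banding difference of -1.42 in IL-18 null and -1.18 in wild type. Hif1a, the oxygen-regulated factor that drives glycolytic genes, had 1113 units in IL-18 null banded, 762 in IL-18 null sham, 621 in wild-type banded and 825 in wild-type sham. Its banding difference was 0.55 in IL-18 null and -0.41 in wild type. Mef2d, a muscle factor, differed by -0.49 in IL-18 null and at least 1.94 in wild type, and Mef2c by 0.27 and 0.72.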
